A study of Caenorhabditis elegans with 2 samples.

Results

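The 10 genes described here encode the core of the DNA damage checkpoint of the nematode Caenorhabditis elegans: atl-1, atm-1, chk-1, chk-2, hus-1, mrt-2, hpr-9, hpr-17, clk-2 and cep-1. They were chosen by name, and all 10 matched a gene among the 19973 protein-coding genes of the Ensembl annotation (release 115, assembly WBcel235, the same build as ce11). Binding of EFL-1, an E2F-family transcription factor, was measured by chromatin immunoprecipitation with an antibody to EFL-1, followed by sequencing. The material was whole L1 larvae, mixed in sex, of strain MT10430, which carries lin-35(n745), an allele of the worm pocket protein gene. The authors made each replicate's peak list with a control. The control experiment that the labels name was not itself analysed here. The animals' age is not given beyond the stage. Both samples, biological replicates 2 and 3, belong to that 1 group, so every animal carried the lin-35 mutation and no wild-type or other control genotype is compared. A gene was counted as bound when a peak summit of the authors' IDR list fell in its window, which runs from 1000 bp before to 500 bp after each annotated 5' end. IDR, the irreproducible discovery rate, measures how alike peaks rank by strength in replicates. Here the IDR list was exactly the 4534 strongest regions of a joint list made from both replicates. A place outside it therefore means a weaker joint signal, not poorer agreement of the replicates at that gene. Whole animals mix all cell types, and the peak lists do not say in which cells EFL-1 sat at a gene.

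The checkpoint halts the cell cycle when DNA is broken or replication forks stall, and in the worm germ line it can also trigger cell death. Sensor kinases of the PI3-kinase-like family, ATR (atl-1) and ATM (atm-1), act with a ring-shaped clamp of RAD9 (hpr-9), RAD1 (mrt-2) and HUS1 (hus-1), which the RAD17 protein (hpr-17) loads onto DNA. CLK-2, the TEL2 protein, is known from yeast and mammals to keep kinases of that family stable. CHK-1 carries the signal to the cell cycle, CHK-2 acts mainly in meiosis in the worm, and CEP-1 is the worm p53. E2F proteins bind, with a DP partner and often a pocket protein such as LIN-35, in front of genes for DNA replication and the cell cycle.

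EFL-1 was bound at 6 of the 10 genes (60%), where 19.6% of all protein-coding genes were bound by the same rule. The 6 were hpr-17, mrt-2, atl-1, atm-1, hpr-9 and chk-1, and all 6 also fell among the stronger 2267 of the 4534 IDR peaks, which reached 11.8% of all genes. At hus-1 a region lay just below the list, cep-1 had only weak regions in 1 replicate, and chk-2 and clk-2 had no region in their windows. With 1 group and genes picked by name, these shares are a description and carry no test.

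The sequences under 4 of the peaks, and 30 bases at mrt-2, are shown because 2 kinds of short pattern associated with E2F complexes were searched in them. The patterns were E2F-type sites (TTCCCGC or TTGGCGC or TTCGCGC or TTGCCGC) and the cell cycle homology region, CHR (TTCGAA or TTTGAA), on either strand. Each sequence is written from RefSeq's ce11 assembly, 5' to 3' along the strand of its gene, with matches in capitals. The stretches are chrV:9645602-9645802 (minus strand, atl-1), chrV:3759618-3759818 (minus, chk-1), chrII:13157058-13157258 (minus, hpr-17), chrIII:10621370-10621534 (plus, hpr-9) and chrIII:11746870-11746899 (plus, mrt-2). Those of atl-1, chk-1 and hpr-17 are centred on the summit, and the hpr-9 stretch starts where the 5' UTR of its neighbour lron-10 ends.
hpr-17: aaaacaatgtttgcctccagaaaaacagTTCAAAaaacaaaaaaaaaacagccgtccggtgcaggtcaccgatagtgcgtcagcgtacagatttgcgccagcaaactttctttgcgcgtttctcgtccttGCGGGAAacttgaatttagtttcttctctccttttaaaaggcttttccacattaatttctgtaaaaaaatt
mrt-2: atcggaggtTTCAAATTTGAAtttccgcgc
atl-1: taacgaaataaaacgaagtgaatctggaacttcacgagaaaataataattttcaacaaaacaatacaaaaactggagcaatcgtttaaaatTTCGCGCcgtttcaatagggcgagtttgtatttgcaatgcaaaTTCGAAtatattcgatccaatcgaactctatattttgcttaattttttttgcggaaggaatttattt
hpr-9: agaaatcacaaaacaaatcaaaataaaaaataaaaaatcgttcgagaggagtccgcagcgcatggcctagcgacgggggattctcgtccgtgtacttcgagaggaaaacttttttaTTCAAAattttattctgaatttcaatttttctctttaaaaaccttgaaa
chk-1: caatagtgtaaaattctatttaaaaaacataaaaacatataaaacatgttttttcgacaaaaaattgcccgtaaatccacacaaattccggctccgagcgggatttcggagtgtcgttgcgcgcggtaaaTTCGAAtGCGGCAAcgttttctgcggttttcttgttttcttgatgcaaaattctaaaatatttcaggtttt

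These patterns, like the genes, were chosen with earlier results of these data known. Within 100 bp of the summit, 5 of the 6 peaks held an E2F pattern and all 6 held a CHR pattern. Over all 4534 IDR peaks the shares were 18.7% and 44.7%, and over windows of the same length centred 150 bp upstream of 16051 genes without an IDR summit they were 5.47% and 55.6%. A CHR match was therefore no rarer in front of genes without a peak. Both patterns together stood at 5 of 6 peaks here, 11.2% of all IDR peaks and 2.70% of those other windows. Because all 6 peaks here held a CHR match, that count of 5 is the E2F count again and not a separate result. Of the stronger 2267 IDR peaks, where all 6 belong, 22.9% held an E2F pattern and 15.1% held both. The windows of the 6 peaks were 30.8 to 39.3% G and C, and the median over all IDR peaks was 42.3% (quartiles 37.3 and 47.3%). The part that base composition has in these shares was not tested.

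At atl-1 the E2F pattern TTCGCGC lay 6 bp upstream of the summit, the nearest of the 5. TTCCCGC on the opposite strand stood 33 bp downstream of the summit at hpr-17 and 59 bp downstream at atm-1. The same letters were 83 bp upstream of the summit at hpr-9, inside the 5' UTR of lron-10 and so outside the stretch printed above. The chk-1 peak held TTGCCGC, on the opposite strand, 40 bp downstream of its summit and 1 base from a TTCGAA. At mrt-2, the only one of the 6 with no E2F match, a pair of CHR matches on opposite strands abut without overlap, with centres at −24.5 and −18.5 bp from the summit (negative is upstream), and make a palindrome. Within 50 bp of the summit the E2F count was 3 of 6 peaks (atl-1, chk-1 and hpr-17), against 13.4% of all IDR peaks. A match says only that these letters are there.

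**Figure D1:**
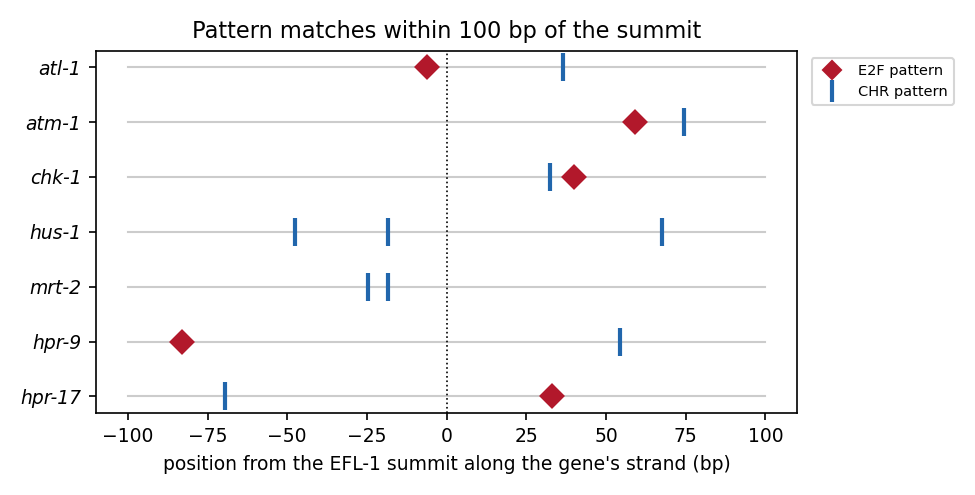
Positions of E2F patterns (diamonds) and CHR patterns (bars) from the EFL-1 summit, in bp along the gene's own strand, for the 6 genes with an IDR peak and for the weaker hus-1 region. The diamonds lie between 83 bp upstream and 59 bp downstream, and hus-1 and mrt-2 have CHR bars alone.

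The strongest of these peaks stood at the clamp loader gene hpr-17 (WBGene00001998). It ranked 96 of 4534 (chromosome II, 13156993 to 13157315), with rank 99 in replicate 2 and 93 in replicate 3. The signal values, which the authors' peak caller set on its own scale for each list, were 1541 in the joint list, 908.8 in replicate 2 and 641.1 in replicate 3, and the median over the IDR list was 124.8. Both replicates thus placed hpr-17 among their 100 strongest regions, and their summits were 3 bp apart, 108 and 111 bp upstream of the 5' end. Another gene, F32A11.1, starts on the other strand 282 bp away, and the summit stands at −171 bp from it.

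Of the clamp subunits, mrt-2 (RAD1; WBGene00003417) had the strongest peak, at rank 225 (chromosome III, 11746750 to 11747059). It ranked 242 in replicate 2 and 199 in replicate 3, with signal values of 548.2 and 407.8. No other protein-coding gene had its window over this summit. The summit lay between the 2 annotated 5' ends of mrt-2, 140 bp downstream of the outer and 132 bp upstream of the inner one, in the 5' UTR of the longer form.

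The hpr-9 peak (RAD9; WBGene00001997) ranked 1189, at chromosome III, 10621337 to 10621515. It was rank 1118 in replicate 2 and 1405 in replicate 3, with signal values of 159.8 and 84.16, and the summits, 123 and 110 bp upstream, were 13 bp apart. The summit of this peak sits in a gap of 181 bp shared with lron-10, a leucine-rich repeat gene on the other strand. The 5' end of lron-10 is nearer to the summit, 65 bp away against 117 bp for hpr-9. Position alone does not say to which of the pair the binding belongs.

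The third subunit gene, hus-1 (WBGene00002042), fell just outside the IDR list. Its region, at chromosome I, 3697881 to 3698196, ranked 4590 in the joint list, 56 places below the last IDR peak, with a signal value of 45.58 against 46.30 for that last peak. It was rank 4462 in replicate 2 (signal value 29.63, −log10 q 4) and 5085 in replicate 3 (16.61, −log10 q 2.69). Replicate 2 alone, taken to the length of the IDR list, would have counted hus-1 as bound, and replicate 3 alone would not. The replicate summits, 64 and 44 bp upstream, were 20 bp apart. The mismatch repair gene msh-2 starts on the other strand, with the joint summit at −488 bp from it, and shares the region. Within 100 bp of the summit lay 3 CHR matches and no E2F pattern.

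**Figure D2:**
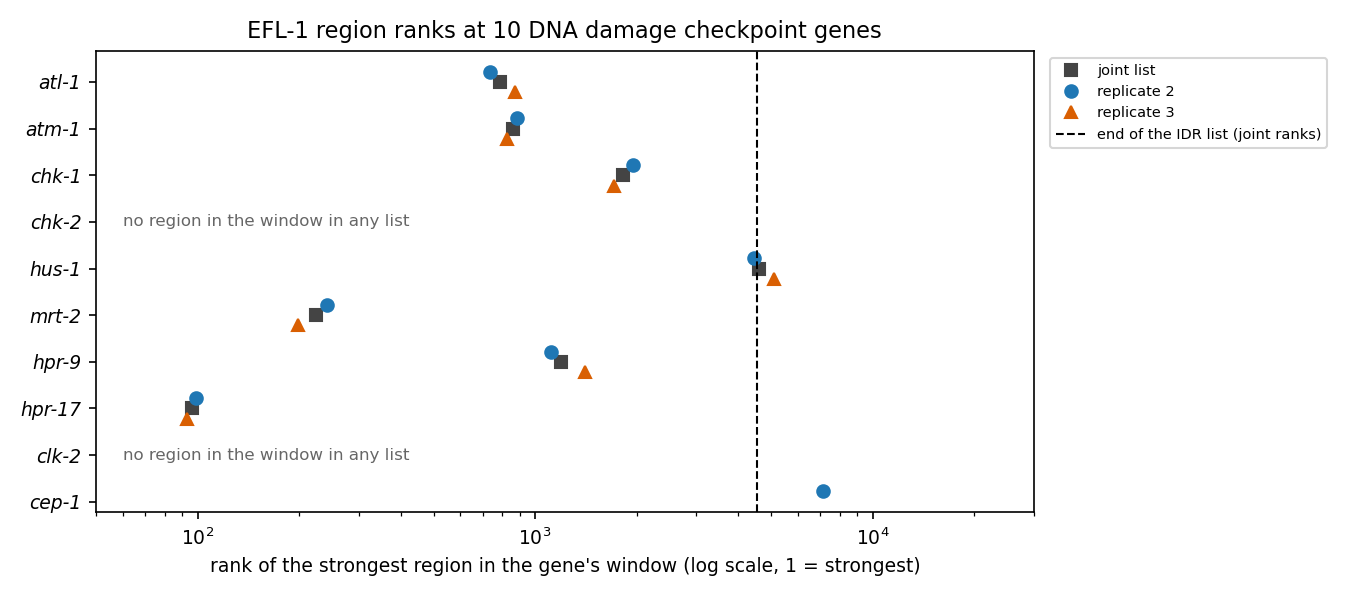
Rank of the strongest region in each gene's window, on a log axis where 1 is strongest, in the joint list (squares), replicate 2 (circles) and replicate 3 (triangles), with the end of the IDR list dashed. The replicates stand close together at 7 genes from hpr-17 (96) to hus-1 (4590), cep-1 has a circle alone at 7109, and chk-2 and clk-2 have no region.

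Both sensor kinase genes were bound, at nearly the same strength. At atl-1 (ATR; WBGene00000226) the peak ranked 785 (chromosome V, 9645574 to 9645817), with rank 737 in replicate 2 and 871 in replicate 3. The peak at atm-1 (ATM; WBGene00000227) ranked 859 (chromosome I, 182888 to 183093), with rank 881 in replicate 2 and 823 in replicate 3. The replicates disagree on which of the 2 is stronger, so these neighbours in the order do not differ beyond the replicate spread. Signal values were 237.7 and 136.6 at atl-1, and 199.8 and 144.2 at atm-1, in replicates 2 and 3.

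The atl-1 summit lay 107 bp upstream of its outer 5' end, and the summits of the replicates were 4 bp apart. On its other side, 157 bp away, starts hcp-2, which encodes a kinetochore protein related to CENP-F. The atm-1 summit was the farthest of the 6 from a 5' end of its gene, 386 bp upstream, and it lay nearer to F56C11.3 on the other strand, at 206 bp. The atm-1 call ended in a window of 300 bp, and with each peak given only to the nearest gene both atm-1 and hpr-9 were lost, which left 4 of 10, where 14.6% of all genes were bound by that rule. Further weak regions stood in the atl-1 window in 1 replicate each, the strongest in replicate 3, in a coding exon (rank 5598, signal value 15.08).

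Of the effector kinases, chk-1 (WBGene00000498) had the weakest of the 6 peaks. It ranked 1825, at chromosome V, 3759643 to 3759797, with rank 1949 in replicate 2 and 1712 in replicate 3 and signal values of 91.75 and 69.68. Even so it stood near the middle of the 3922 bound genes, whose strongest peaks had a median rank of 1803. The summit lay 249 bp upstream of the outer 5' end, and no other protein-coding gene had its window over it. The replicate summits, 260 and 236 bp upstream, were 24 bp apart, the widest gap of the 6. The median gap was 13 bp over the 4525 IDR peaks found again in each replicate.

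No list held a region in the window of chk-2 (WBGene00000499), on the right part of chromosome V. The nearest was a weak region of replicate 3 whose summit lay 1008 bp upstream, just outside the window (rank 9829, −log10 q 0.688), and the nearest IDR summit was 18303 bp away. The divergent neighbour Y60A3A.19 starts past a gap of 531 bp, and it too had no IDR summit.

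At clk-2 (TEL2; WBGene00000537) the window was also empty in all 4 lists. The gene lies on chromosome III, 103 bp downstream of cux-7 on the same strand. EFL-1 was bound in front of cux-7, 2325 bp from the 5' end of clk-2, at rank 503 (465 in replicate 2 and 579 in replicate 3), with the summit 4 bp upstream of the 5' end of cux-7. In worms, genes this close on 1 strand are often transcribed together as an operon from a promoter before the first gene. Whether that holds for this pair was not tested, and by the window rule the peak belongs to cux-7 and not to clk-2.

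The p53 gene cep-1 (WBGene00000467) had no IDR or joint region in its window. In replicate 2 a weak region (rank 7109, signal value 16.50, −log10 q 1.89) lay in an intron, 275 bp upstream of the innermost of 4 annotated 5' ends, and a weaker one ranked 21935. Replicate 3 had no region in the window. Its first 5' ends face those of F52B5.3 across a gap of 298 bp with no region in any list. The nearest IDR peak, rank 814, lay past the other end of the gene, 144 bp upstream of the ribosomal protein gene rpl-25.2.

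**Figure D3:**
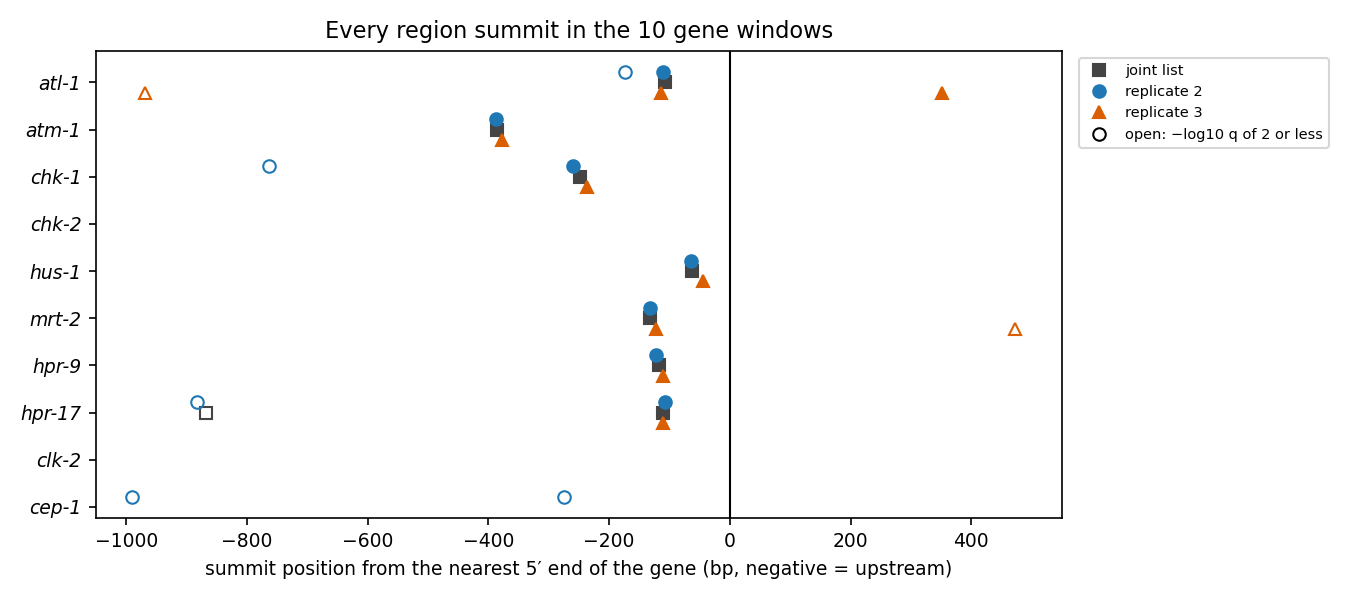
Summits of every region in the 10 windows, in bp from the nearest 5' end of the gene (negative is upstream), in the joint list (squares), replicate 2 (circles) and replicate 3 (triangles), open where −log10 q was 2 or less. At 7 genes the lists fall on 1 place, from −388 to −44 bp, and the other marks are weaker regions seen in 1 list, or in 2 lists far upstream of hpr-17. Of these, the atl-1 mark at 352 bp in replicate 3 is filled (−log10 q 2.13).

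The 6 peaks resembled other IDR peaks in place and in replicate agreement. Their summits lay 107 to 386 bp upstream of the nearest 5' end of the gene (median −124.5 bp), where the strongest peaks of all bound genes had a median of −213 bp (quartiles −393 and −110.2 bp). The larger of the replicate ranks was 1.06 to 1.26 times the smaller at the 6 genes, and the median over IDR peaks was 1.17. Peak widths were 155 to 323 bp, around a median of 225 bp, and 316 bp over the IDR list. In rank they stood higher than most, with a median of 822 (range 96 to 1825) against 1803 (quartiles 809.5 and 3000) over all bound genes.

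Gene arrangement moved with the calls across the genome. Of 3503 protein-coding genes with a divergent neighbour within 1000 bp, 46.0% were bound, against 14% of the other 16470. Among the checkpoint genes 7 have such a neighbour (atl-1, atm-1, chk-2, hus-1, hpr-9, hpr-17 and cep-1), and 4 of them (57.1%) were bound. The other 3 were chk-1, mrt-2 and clk-2, of which 2 (66.7%) were bound. The share among the 7 is near the 46.0% of genes placed alike, and the share among the 3 is above the 14%. Both rest on few genes. The part that gene arrangement has in the count of 6 was not tested. Peaks were shared with a second gene at 4 of the 6 (66.7%), and at 51.3% of all bound genes.

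Taking weaker regions added few checkpoint genes. The 2000 strongest joint regions already reached 6 of 10, when 10.8% of all genes were reached. The whole joint list of 21875 regions reached 7, with 42.0% of all genes. In the full replicate lists 8 of 10 (replicate 2, 45.3% of all genes) and 7 of 10 (replicate 3, 47.5%) had a region of any strength. The gain over the IDR list was hus-1 in each of these lists and cep-1 in replicate 2.

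**Figure D4:**
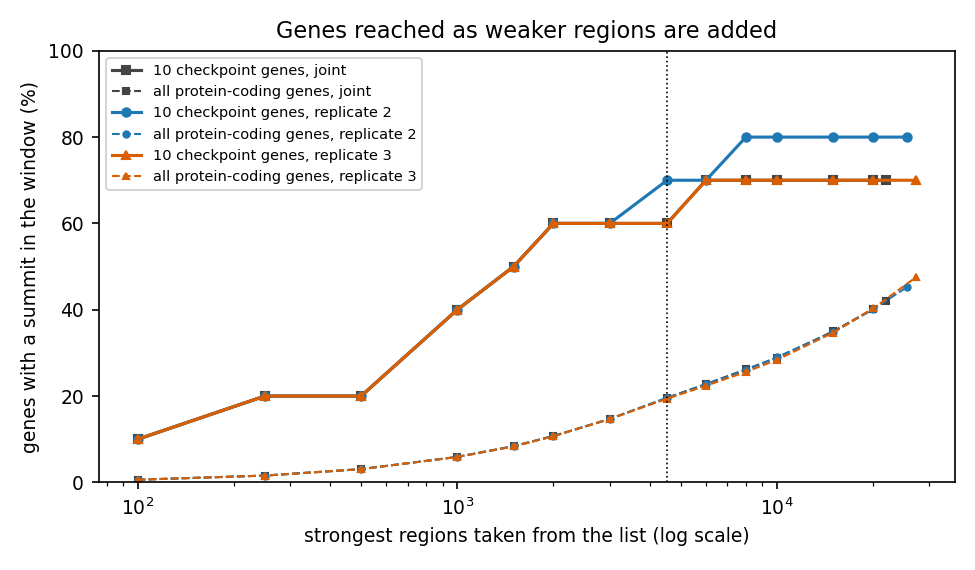
Percentage of the 10 checkpoint genes (solid) and of all protein-coding genes (dashed) with a summit in the window, against the number of strongest regions taken (log axis), for the joint list and each replicate, with the IDR length dotted. The checkpoint lines reach 60% by 2000 regions and end at 70 to 80%, while the dashed lines climb to 42.0, 45.3 and 47.5%.

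Around the core genes, 4 groups of related genes were counted by the same rule. Among damage sensors and adaptors 11 of 14 (78.6%) were bound, against 19.6% of all genes. The strongest were rfc-4, a subunit of the clamp-loading RFC complex (rank 92, with 93 and 94 in replicates 2 and 3), and the Timeless gene tim-1 of the replication fork (rank 93, with 85 and 114). The others were the claspin gene clsp-1, brc-1, tipn-1, mre-11, rpa-2, rfc-2, rpa-1, rad-50 and the TopBP1 gene mus-101. The 3 without an IDR summit, smk-1, rfc-3 and brd-1, had joint regions at ranks 5645, 12944 and 4611. The rfc-4 peak was shared with the elongation factor gene eef-1A.1 and the tim-1 peak with Y75B8A.23. Also shared were the peaks of clsp-1 (with eef-2), mre-11 (with wdr-5.3), tipn-1 (with ubxn-1) and rpa-1 (with F18A1.7).

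Cell cycle effectors downstream of the checkpoint were bound at 3 of 8 (37.5%), against 19.6% of all genes. The bound genes were wee-1.3, whose kinase holds CDK-1 inactive (rank 146, with 133 and 176 in the replicates), cdk-1 (rank 220, with 209 and 234) and the kinase gene tlk-1. The strongest cdk-1 peak was shared with iff-1. The tlk-1 peak was close to the end of the IDR list (rank 4507 of 4534, with 5460 and 3960). Its summit, at −957 bp, lay at the far edge of the window. All 4 CDC25 phosphatase genes (cdc-25.1, cdc-25.2, cdc-25.3 and cdc-25.4) and wee-1.1 had no IDR summit.

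Regulators of CEP-1 and cell death genes gave 2 of 12 (16.7%), near the 19.6% of all genes. The bound ones were cbp-1, the worm p300/CBP gene (rank 174, with 213 and 133 in the replicates, and the summit at −884 bp), and the arginine methyltransferase gene prmt-5 (rank 2706, with 2618 and 3101). The other 10 had no IDR summit, among them egl-1 and ced-13, death-promoting genes that CEP-1 activates, picked here after their values were seen. Counting regions of any strength, cbp-1 and prmt-5 included, 8 of 12 had one in the joint list, where 42.0% of all genes did. The count was 9 in replicate 2 (45.3% of all genes) and 5 in replicate 3 (47.5%).

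Of the other PI3-kinase-like kinases and their assembly factors 4 of 5 (80.0%) were bound, against 19.6% of all genes. The strongest were the AAA ATPase gene ruvb-2 (rank 556, with 614 and 517 in the replicates) and trr-1, which encodes the TRRAP protein (rank 975, with 960 and 993). Also bound were smg-1, of nonsense-mediated decay, and ruvb-1. The trr-1 peak was shared with C47D12.2, the smg-1 peak with haps-1 and the strongest ruvb-1 peak with tofu-1. The ruvb-2 peak was shared with no other gene. The TOR kinase gene let-363 had no IDR summit. The groups are small and no difference between them was tested.

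**Figure D5:**
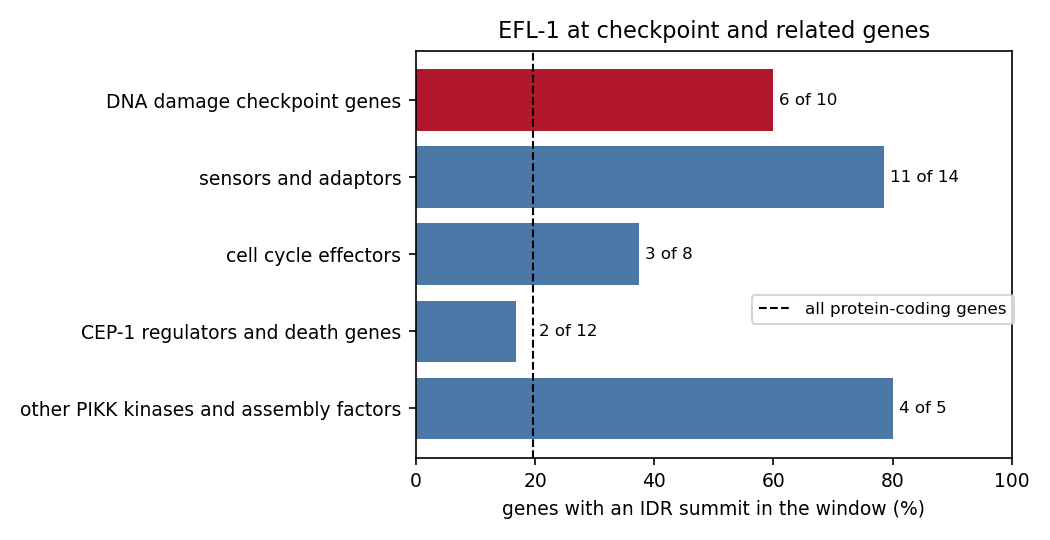
Percentage of genes with an IDR summit in the window for the 10 checkpoint genes (red, 6 of 10) and 4 related groups (blue), with the count beside each bar and all protein-coding genes (19.6%) dashed. Sensors and adaptors (11 of 14), cell cycle effectors (3 of 8) and other kinases with assembly factors (4 of 5) stand above the line. CEP-1 regulators and death genes (2 of 12) stand just below it.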

How the data were processed

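EFL-1 binding was measured by ChIP-seq in 2 biological replicates of 1 group. The deposited files were narrowPeak lists: 1 per replicate, made from its alignments with a control, a joint list from both replicates' alignments, and the IDR list taken from it, per the deposited description texts. The 4 ce11 lists were used, and the 4 ce10 lists were not used here. Not given in the sources used here were the aligner, the peak caller and the IDR threshold. With no counts, depth is unknown and no interval could be given. The signal of each peak is the authors' deposited value, and served only to rank or describe peaks of that list. The −log10 q value is also as deposited and is the same for all IDR peaks. The IDR list was exactly the 4534 strongest regions of the joint list, so joint and IDR ranks coincide there, and replicate ranks come from their own lists.

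Windows around 29304 distinct 5' ends of protein-coding transcripts on 6 chromosomes were searched in Python 3.11.15 with numpy 2.4.6. The window rule was tested on simulated summits. Sequence came from RefSeq's WBcel235, and no peak ended past a chromosome. No test was run: there is 1 group, and the replicates' separate values give the spread. The alternatives were other windows, lists, single replicates, nearest genes, 5' ends, the RefSeq annotation and pattern distances. The named genes were the 10 members, genes sharing their peaks, and in the related groups the bound genes, with values for the 2 strongest, and the unbound where 6 or fewer. Outside that rule, and chosen after their values were seen, are the adjacent genes cux-7, rpl-25.2, F52B5.3, Y60A3A.19, gid-7 and spe-18, the death genes egl-1 and ced-13, and the joint ranks of smk-1, rfc-3 and brd-1. So are the values of tlk-1 and the genes sharing peaks in the related groups. The members, lists, patterns and alternatives were chosen with earlier results of these data known.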

Additional observations from a re-analysis of the deposited data

How the results depend on the processing

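The count of checkpoint genes with an IDR summit stayed between 4 and 7 of 10 over 11 other settings. It was 4 with nearest genes only (without atm-1 and hpr-9; 14.6% of all genes) and 5 within 300 bp (without atm-1; 12.9%). It was 7, with hus-1, from joint regions with −log10 q over 2 (24% of all genes) and without replicate 3 (19.6%). At the other 7 settings it was 6, with 11.8 to 24.3% of all genes. Over all protein-coding genes the count of 3922 fell to 2576 within 300 bp and to 2365 among the stronger 2267 IDR peaks, where the related groups gave 11 of 39 in place of 20. Within 50 bp of the summit 1440 of 4534 IDR peaks held an E2F or CHR pattern, in place of 2363, and 4 of 6 checkpoint peaks did, in place of 6. An E2F pattern lay that near at 3 checkpoint peaks, in place of 5, and at 609 IDR peaks, in place of 846. A smaller window holds fewer matches by construction. Leaving out a replicate gives the rank in the other one, as printed for each gene. Depth is unknown, and weak regions are listed down to −log10 q near 0, so an empty window shows only that no region was called there.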

Other observations

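The gene that follows chk-1 on the same strand, gid-7, had its own EFL-1 peak (chromosome V, 3757042 to 3757202). It ranked 1166, with 1311 in replicate 2 and 1057 in replicate 3, and so stood above the chk-1 peak itself at 1825 in the IDR list and in both replicates. Its summit lay in the gap of 78 bp between chk-1 and gid-7, outside the window of chk-1 and 44 bp upstream of gid-7. The ends of the peak ran past the gap on both sides. The gene after hpr-17 on the same strand, spe-18, starts past a gap of 64 bp and had no region in its window in either replicate. The 3 close same-strand pairs thus differed: a peak before the first gene alone at hpr-17 and spe-18 and at cux-7 and clk-2, and 1 before each gene at chk-1 and gid-7. These pairs were picked after their values were seen.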
